A study of Mus musculus with 6 samples.

Results

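The interleukin 1 family comprises secreted alarm cytokines and the receptors that read them, and the account below follows 9 of its genes in mouse epidermis during the healing of a suction blister. The 9 were taken by symbol from count tables of 24014 genes. They comprise the ligand genes Il1a, Il1b, Il18 and Il33, the antagonist gene Il1rn, the receptor genes Il1r1 and Il1rl1, the co-receptor gene Il1rap and the decoy receptor gene Il1r2. All 9 were listed in each library, and 8 of them had enough reads to be tested, while Il1rl1 did not.

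Interleukin 1 alpha and 1 beta both act through the receptor encoded by Il1r1, which signals once it has paired with the co-receptor encoded by Il1rap. The same co-receptor serves interleukin 33, which is read by the receptor encoded by Il1rl1. Brakes on the pathway are the receptor antagonist encoded by Il1rn, which occupies the receptor without activating it, and the decoy receptor encoded by Il1r2, which binds the cytokine and cannot signal. Keratinocytes are known to hold interleukin 1 alpha and interleukin 33 in store and to release them when damaged, whereas interleukin 1 beta and interleukin 18 are made as precursors that inflammasomes cut.

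RNA was sequenced from epidermal cells of wild type mouse dorsal skin on postnatal day 2. In 3 blister libraries the skin had been raised by negative pressure of 523.4 ± 1.3 mmHg through a syringe 4 mm wide, which left a blister of about 3 mm, and was healing. Another 3 libraries were made from control skin of that age. Cells were freed with 0.25% trypsin and passed through a 70 µm filter, so a library held every cell type that came away with the epidermis. How long after suction the skin was taken, and from how many animals, is not stated in the labels, and the p-values rest on how these libraries differ among themselves, a spread that may be technical.

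Library totals ran from 7600567 counts (blister 2) to 12972196 counts in blister libraries, and from 11743139 to 15912863 counts in control libraries. The 8 keratinocyte markers checked were all present in every library, with summed levels of 107000 to 196400 CPM (counts over the TMM-scaled library size) in blister libraries and 62890 to 87850 CPM in control libraries. Some libraries stood apart. Blister 3 had the lowest sum of neutrophil markers among the blister libraries, and control 3 had 6047 CPM of fibroblast markers and 224 CPM of mast cell markers, the highest of the 6 libraries for both. Xist, the RNA of the inactive X chromosome, was high in 3 libraries (838 and 879 CPM in blister 1 and 2, 1409 CPM in control 1), and the other 3 libraries were at 0.512 to 16.9 CPM. Ddx3y, a gene of the Y chromosome, went the other way. It had 0.275, 0.826 and 1.30 CPM in blister 1, blister 2 and control 1. In blister 3, control 2 and control 3 it had 62.0, 40.2 and 60.3 CPM.

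Transcripts of 2 cytokines, Il33 and Il1b, stood at 43.1 and 40.6 times their control means in blister epidermis, while the blister and control ranges of Il1a and Il18 overlapped. Il1rn, Il1r2 and Il1rap rose by smaller factors, and Il1r1 was not called. Among the 8 tested members 5 rose and 0 fell, where a call means an edgeR quasi-likelihood adjusted p (Benjamini-Hochberg, 14028 genes) below 0.05. By that rule 9.74% of all tested genes rose and 11.6% fell, 21.3% in all. The same 5 members had every blister library above every control library, and 0 tested members had every one below, as 21.4% and 23.2% of all tested genes did. The median log2 fold change (blister over control throughout) was 0.78 over the 8 members and 0.002 over all genes. The member count was 3 (Il33, Il1b and Il1rn) when blister 1, blister 2, control 1, control 2 or control 3 was left out, and 5 when blister 3 was left out. Scaling by library total alone lowers the log2 fold changes of all genes by 0.254 at the median and turns the split of calls over all genes to 544 higher and 2831 lower, compared with 1367 higher and 1626 lower with TMM factors. It left 4 members called, without Il1rap.

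**Figure D1:**
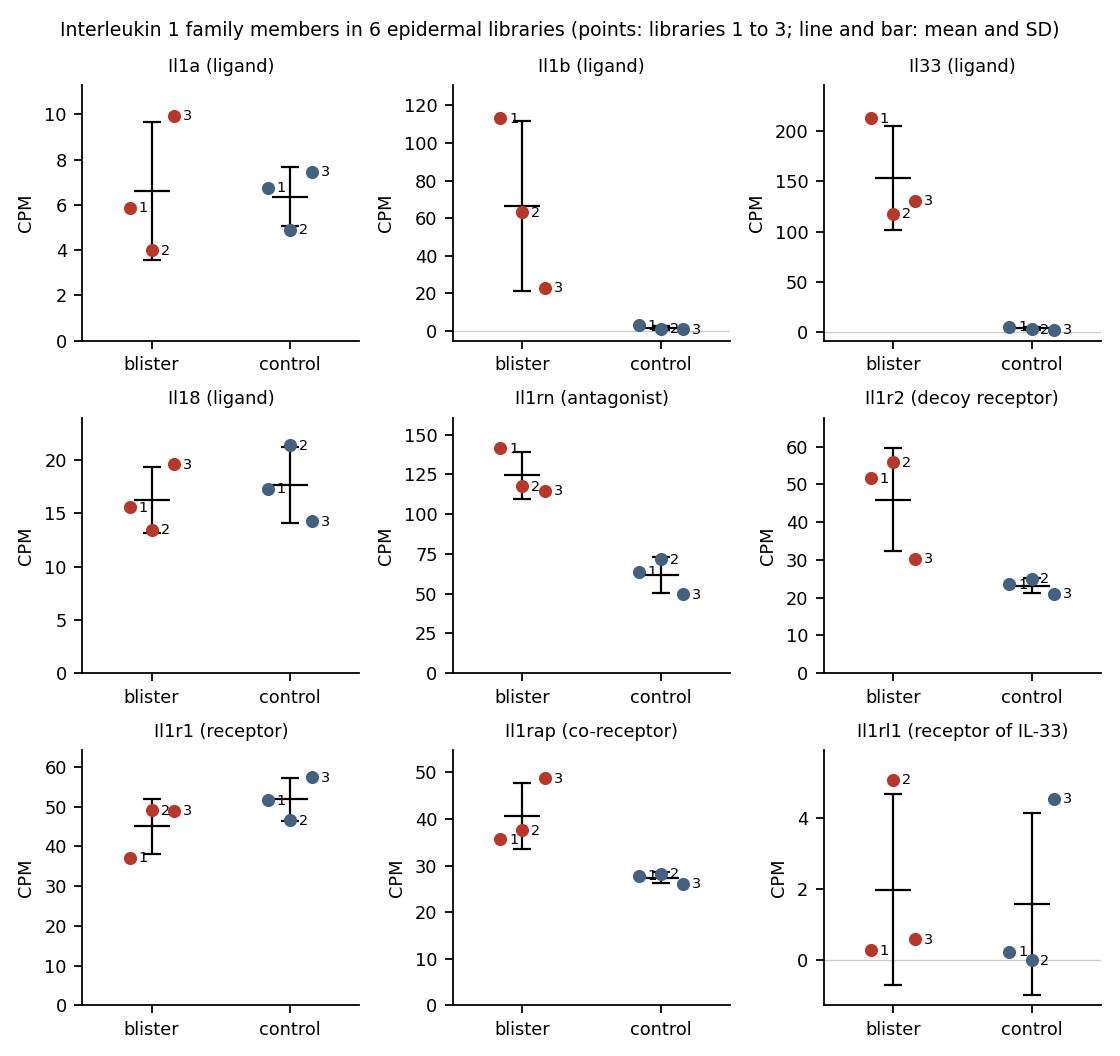
Level of each of the 9 members in CPM (linear axis) in 3 blister and 3 control libraries, numbered 1 to 3, with the mean and SD of each group. For Il33, Il1b, Il1rn, Il1r2 and Il1rap the lowest blister library lies above the highest control library, whereas Il1a, Il18, Il1r1 and Il1rl1 overlap.

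The promoters of the ligand genes that separate most clearly are shown here for comparison, Il1b and Il33 against Il1a, which also encodes an interleukin 1 and was not called. Il1a and Il1b both lie on chromosome 2 and are read from its minus strand, and Il33 lies on the plus strand of chromosome 19 with a pair of annotated starts. Each line gives the 250 bases before an annotated start, 5′ to 3′ on the gene's own strand, from RefSeq on GRCm38.p6 (chr2:129309973-129310222, chr2:129371140-129371389, chr19:29924863-29925112 and chr19:29945540-29945789, in this order). Capitals mark TATAAA and the AP-1 motif TGANTCA where a search of both strands found them.
Il1a: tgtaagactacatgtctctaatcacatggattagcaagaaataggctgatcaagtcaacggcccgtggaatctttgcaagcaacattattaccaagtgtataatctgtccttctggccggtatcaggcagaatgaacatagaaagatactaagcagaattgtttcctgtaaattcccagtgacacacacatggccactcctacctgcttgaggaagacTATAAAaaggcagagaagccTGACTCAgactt
Il1b: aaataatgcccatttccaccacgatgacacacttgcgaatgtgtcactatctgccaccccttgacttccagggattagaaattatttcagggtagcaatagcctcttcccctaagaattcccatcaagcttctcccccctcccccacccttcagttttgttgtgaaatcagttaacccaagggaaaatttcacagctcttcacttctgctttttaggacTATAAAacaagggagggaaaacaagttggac
Il33, upstream start: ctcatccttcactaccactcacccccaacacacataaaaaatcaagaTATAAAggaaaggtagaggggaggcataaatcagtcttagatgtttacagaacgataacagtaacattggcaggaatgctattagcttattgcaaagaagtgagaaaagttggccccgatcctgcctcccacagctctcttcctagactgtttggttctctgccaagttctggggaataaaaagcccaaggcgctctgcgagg
Il33, downstream start: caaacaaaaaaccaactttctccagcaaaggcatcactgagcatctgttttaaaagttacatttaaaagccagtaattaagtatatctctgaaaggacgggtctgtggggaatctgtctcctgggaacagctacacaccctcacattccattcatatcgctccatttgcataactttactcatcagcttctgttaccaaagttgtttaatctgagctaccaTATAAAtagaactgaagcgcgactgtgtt
TATAAA began 32 bases before the start of Il1a, 31 bases before that of Il1b and 29 bases before the downstream start of Il33. At the upstream start of Il33 it lay 203 bases away. Of 32851 RefSeq promoter windows of this length, 12.4% held TATAAA on either strand. The Il1a window also held the AP-1 motif 12 bases before the start, as 6.75% of all windows did, and the Il1b and Il33 windows did not. Searches for the NF-kappaB consensus motif and for the STAT motif TTCNNNGAA found no match in these 4 windows, against 7.25% and 7.02% of all windows. Over the 14 windows of the 9 members, AP-1 letters were found in 2 (Il1a and Il1rn), NF-kappaB letters in 1 (Il1r1), STAT letters in 1 (Il1r2) and TATAAA in 5. A match is a string of letters and not a measured binding site.

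Il33 encodes an alarmin that barrier cells keep in the nucleus. It stood at 213, 118 and 131 CPM in blister 1, 2 and 3, against 5.45, 2.80 and 2.45 CPM in control 1, 2 and 3. All 3 blister libraries lay above all 3 control libraries, and blister 1 was the highest. The mean was 154 ± 51.6 CPM in blister and 3.56 ± 1.64 CPM in control libraries (SD, n = 3 each), a ratio of 43.1. The log2 fold change was 5.45 ± 0.38 (SE), with an edgeR adjusted p of 0.00343. Only 0.14% of the tested genes had a larger log2 fold change.

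Il1b, which encodes the inducible interleukin 1 of myeloid cells and, in lesser amounts, keratinocytes, followed at 113, 63.0 and 23.1 CPM in blister 1, 2 and 3, against 2.99, 1.12 and 0.796 CPM in control 1, 2 and 3. The groups did not overlap, but the blister libraries differed among themselves by a factor of 4.9, compared with 1.81 for Il33. Its log2 fold change was 5.38 ± 0.72 (SE, edgeR adjusted p = 0.0074), and its mean was 66.5 ± 45.2 CPM in blister and 1.64 ± 1.19 CPM in control libraries (SD, n = 3 each). Without blister 1 the blister mean was 43.1 CPM, and without control 1 the control mean was 0.958 CPM. The call held when any library was left out, with edgeR adjusted p of at most 0.0307. Whether counting used strand is not given, and the antisense gene Il1bos, which overlaps the span of Il1b outside its exons, had 0.934 to 1.79 CPM in blister and 0.341 to 0.767 CPM in control libraries.

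Il1a, the constitutive interleukin 1 of keratinocytes, was low and showed no separation. It had 5.87, 3.99 and 9.93 CPM in blister libraries 1, 2 and 3, and 6.75, 4.90 and 7.45 CPM in control libraries 1, 2 and 3. Blister 3, which was lowest for Il1b, was highest for Il1a. The log2 fold change was 0.064 with a 95% interval of -0.76 to 0.89 (edgeR adjusted p = 0.91), and its sign turned in 5 of the 15 alternative fits. Exons of Il1a overlap the opposite-strand gene Gm14023, which had 0.413 to 1.19 CPM in blister and 0.630 to 0.844 CPM in control libraries. Il18, whose product drives interferon gamma responses, had 15.6, 13.5 and 19.6 CPM in blister libraries, against 17.3, 21.4 and 14.3 CPM in control libraries. The groups overlapped, with a log2 fold change of -0.12 (95% interval -0.62 to 0.38, edgeR adjusted p = 0.716).

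Among the brakes, Il1rn had the highest mean CPM of the members in control epidermis. It had 142, 117 and 115 CPM in blister libraries 1, 2 and 3, against 63.6, 71.7 and 49.4 CPM in control libraries 1, 2 and 3. The blister libraries lay close together and all above the controls. The means of 124 ± 14.8 CPM in blister and 61.6 ± 11.3 CPM in control libraries (SD, n = 3 each) give a ratio of 2.02. Its log2 fold change, 1.02 ± 0.16 (SE) at an edgeR adjusted p of 0.0102, held in all 15 alternative fits, with adjusted p of at most 0.0433. Il1r2, the decoy receptor, reached 51.6 and 55.9 CPM in blister 1 and 2 and 30.3 CPM in blister 3, against 23.5, 24.9 and 21.0 CPM in control 1, 2 and 3. Blister 3 lay nearer to the controls than to the other blister libraries. The log2 fold change was 0.985 ± 0.23 (SE, edgeR adjusted p = 0.0249), and the call was lost when any library other than blister 3 was left out (largest edgeR adjusted p 0.0829, with blister 1 left aside).

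Of the signalling receptor and its partner, Il1rap alone was called, and the difference between their changes was not tested. Il1r1 had 37.1, 49.1 and 48.9 CPM in blister libraries, against 51.6, 46.6 and 57.5 CPM in control libraries, overlapping levels with a log2 fold change of -0.21 (95% interval -0.56 to 0.14, edgeR adjusted p = 0.338). Il1rap had 35.6, 37.6 and 48.7 CPM in blister libraries, against 27.8, 28.3 and 26.1 CPM in control libraries. Here blister 3 was the highest library, and the controls were within a factor of 1.08 of each other. Exons of Il1rap overlap the opposite-strand gene Gm20319, whose level was not examined here. The log2 fold change of Il1rap was 0.57 ± 0.15 (SE, edgeR adjusted p = 0.0347), the smallest of the 5 called, and it too lost its call whenever 1 library other than blister 3 was dropped (largest edgeR adjusted p 0.108, for control 1).

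Il1rl1, the receptor of interleukin 33, had most of its reads in 2 libraries. It had 3, 37 and 7 reads in blister 1, 2 and 3, and 3, 0 and 80 reads in control 1, 2 and 3, that is 0.275, 5.09 and 0.594 CPM in blister libraries, against 0.230, 0 and 4.55 CPM in control libraries. The 0 of control 2 allows up to 0.210 CPM (3 counts, counting error only). The gene fell below the minimum for testing, and in a fit with no filter its log2 fold change was 0.19 (edgeR adjusted p = 0.934). Control 3 had the highest fibroblast and mast cell marker sums, and blister 2 had the highest fibroblast sum of the blister libraries, 805 CPM against 105.5 and 144 CPM in blister 1 and 3. The mast cell sum of blister 2 was 23.1 CPM, between 13.8 CPM in blister 1 and 31.6 CPM in blister 3. Kit made up most of these sums, at 13.7, 16.7 and 30.8 CPM in blister 1, 2 and 3. The other mast cell markers had few reads, and among the blister libraries each was highest in blister 2. Tpsb2, for example, had 0, 18 and 3 reads in blister 1, 2 and 3. The part of these cells in the Il1rl1 level was not tested.

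**Figure D2:**
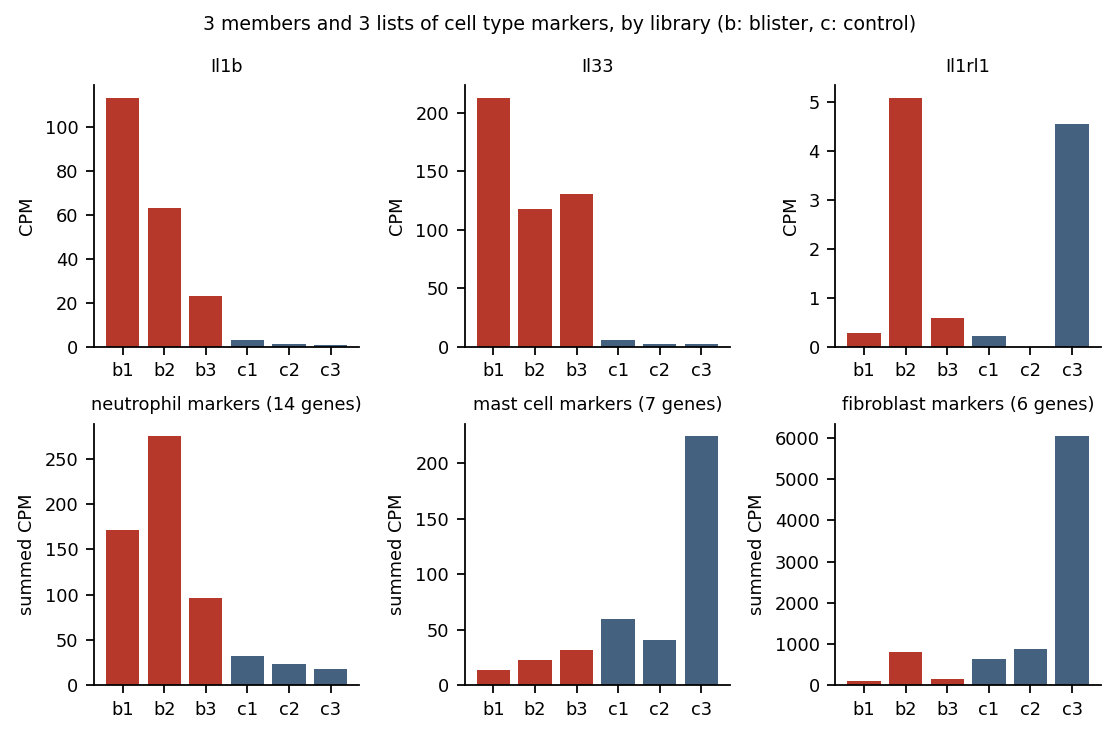
Level of Il1b, Il33 and Il1rl1 in CPM (top) and summed CPM of neutrophil, mast cell and fibroblast markers (bottom) in each library, blister libraries b1 to b3 and control libraries c1 to c3. Neutrophil markers reach 96.8 to 275 CPM in blister libraries and 18.2 to 32.5 CPM in controls, and Il1rl1 is highest in b2 and c3. Padi4, which was not called, makes up most of the neutrophil sum in each control library.

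The summed neutrophil markers were also higher in blister libraries. Their sum was highest in blister 2, where Il33 was lowest among the blister libraries, and lowest in blister 3, where Il1b was lowest. Single markers differed in order. Trem1 and Fpr1 declined from blister 1 to blister 2 to blister 3, as Il1b did. Csf3r, Cxcr2, Retnlg, Clec4d and Fpr2 were highest in blister 2, and Padi4 in blister 3. Of 14 neutrophil markers 8 were tested. Of these, 6 reached the minimum of the filter on low counts (0.789 CPM) in all 3 libraries of the blister group alone, so that they could enter the test only by being high there, and all 6 were called higher. Of the 2 that reached it in both groups, Csf3r rose and Padi4 was not called. The summed level of the 14 was 171, 275 and 96.8 CPM in blister 1, 2 and 3, against 32.5, 23.6 and 18.2 CPM in control 1, 2 and 3. Padi4 made up most of each control sum, at 27.2, 20.3 and 11.4 CPM in control 1, 2 and 3. In blister 1, 2 and 3 it had 23.8, 21.8 and 25.3 CPM. Csf3r, which encodes the receptor of the cytokine G-CSF and was the most abundant tested marker, had 37.2, 86.4 and 33.1 CPM in blister libraries, against 2.99, 1.54 and 3.19 CPM in controls. Among the untested markers, Mpo, a granule enzyme gene of neutrophil precursors, had 0 reads over the blister and 3 over the control libraries. Elane had 1 read in blister and 0 in control libraries, and Camp had 5 and 6. Mmp8 had 88 reads in blister and 6 in control libraries, Ngp had 37 and 7, and Ltf had 13 and 2. Il1b had 3.05, 0.729 and 0.697 reads per read of Csf3r in blister libraries and 1.0, 0.727 and 0.250 in control libraries. Il33 had 5.73, 1.36 and 3.95 in blister libraries and 1.82, 1.82 and 0.768 in control libraries. Il1r2 had 1.39, 0.646 and 0.915 in blister libraries and 7.85, 16.2 and 6.61 in control libraries. The control ratios rest on 39, 22 and 56 reads of Csf3r in control 1, 2 and 3. These ratios largely follow from the group means, so no conclusion is drawn from them. Blister over control, the means stood at 20.3 for Csf3r, 40.6 for Il1b, 43.1 for Il33 and 1.98 for Il1r2. In such bulk libraries more cells of a type and more RNA per cell cannot be told apart, and the part of neutrophils in these levels was not tested.

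Markers of keratinocytes also moved: of 8 tested, 5 rose (Krt14, Krt5, Dsp, Dsg3 and Sfn) and 0 fell, and Krt1, the most abundant, was not called. For this and the lists below, 9.74% of all tested genes rose and 11.6% fell. The part of keratinocytes in the Il33 and Il1rn levels was not tested. Of 10 monocyte and macrophage markers 9 were tested, and 2 rose, Cd14 and Fcgr1. Of 6 tested Langerhans cell markers and 5 tested markers of T cells and innate lymphoid cells, 0 rose and 0 fell. The summed Langerhans markers, with Cd74 the most abundant, were at 89.9 to 129 CPM in blister libraries and 102 to 123 CPM in control libraries. Cd207 had 3.30, 1.38 and 1.36 CPM in blister libraries, against 1.30, 0.560 and 0.569 CPM in controls (edgeR adjusted p = 0.102). It reached the filter minimum in all 3 libraries of the blister group alone. The T cell sums were at 40.2 to 57.5 CPM in blister and 58.3 to 70.4 CPM in control libraries. Thy1, the most abundant, made up most of each sum. Cd3e, Cd3g and Cd3d averaged 2.30, 8.18 and 1.94 CPM in blister libraries, against 3.15, 12.2 and 3.36 CPM in controls. Kit, carried by mast cells and also by melanocytes, was the 1 mast cell marker called and fell to 20.4 CPM in blister libraries, against 49.9 CPM in control libraries (edgeR adjusted p = 0.0318). Among tested endothelial markers 2 of 5 fell (Kdr and Vwf, with Pecam1 the most abundant), and among fibroblast markers 3 of 6 fell (Pdgfra, Dcn and Lum, with Col3a1 the most abundant). Kdr and Lum reached the filter minimum in all 3 libraries of the control group alone.

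Set on a common scale per kilobase of exon, the order of the members differed between the groups. In blister libraries Il33 (59.0 ± 19.8 CPM per kb), Il1b (49.0 ± 33.3) and Il1rn (46.0 ± 5.47) led, and neighbours in this order overlapped, followed by Il1r2 at 32.4 ± 9.65 CPM per kb (SD, n = 3). In control libraries Il1rn led at 22.8 ± 4.16 CPM per kb, ahead of Il18 at 17.1 ± 3.48 and Il1r2 at 16.3 ± 1.38 CPM per kb, and neighbours in this order overlapped too. Il33 and Il1b were near the bottom of the control order at 1.37 ± 0.629 and 1.21 ± 0.874 CPM per kb, with Il1rl1 alone below them at 0.233 CPM per kb. Il18 was at 15.7 ± 3.02 CPM per kb in blister libraries, and Il1rl1 at 0.291 CPM per kb was again the lowest. Il1r1 stood at 7.37 ± 1.13 CPM per kb in blister and 8.49 ± 0.886 in control libraries. Il1rap and Il1a came next, at 4.72 ± 0.823 and 3.34 ± 1.54 CPM per kb in blister libraries and 3.19 ± 0.134 and 3.23 ± 0.668 in control libraries, without separation from each other. Exon lengths were those of GENCODE M21, a later build than the one the submitters name, so these levels are approximate.

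Ratios of reads within a library do not depend on scaling between libraries. They do depend on the exon lengths of the 2 genes, so they compare the groups and do not give relative transcript numbers. Il1b had 0.8, 0.537 and 0.202 reads per read of its antagonist Il1rn in blister 1, 2 and 3, against 0.0470, 0.0156 and 0.0161 in control 1, 2 and 3. The lowest blister ratio was 4.29 times the highest control ratio, and the geometric means differed 19.4-fold. For Il1a the same ratio overlapped between the groups, at 0.0415, 0.0340 and 0.0867 in blister libraries and 0.106, 0.0684 and 0.151 in control libraries. Il33 had 13.6, 8.72 and 6.66 reads per read of Il18 in blister libraries, against 0.314, 0.131 and 0.171 in control libraries. The decoy to receptor ratio, Il1r2 to Il1r1, was 1.39, 1.14 and 0.620 in blister libraries and 0.455, 0.535 and 0.366 in control libraries. Exons of Il1r2 span 1419 bases and those of Il1r1 6115 bases. Per kilobase of exon, the control mean was higher for Il1r2 (16.3 CPM per kb) than for Il1r1 (8.49 CPM per kb). That of co-receptor to receptor, Il1rap to Il1r1, was 0.960, 0.765 and 0.997 in blister libraries and 0.539, 0.607 and 0.454 in control libraries. With 3 libraries against 3 an exact two-sided permutation test cannot go below 0.10, so none of these ratios could pass a threshold of 0.05, and the pairs were chosen after the values of their genes were seen.

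**Figure D3:**
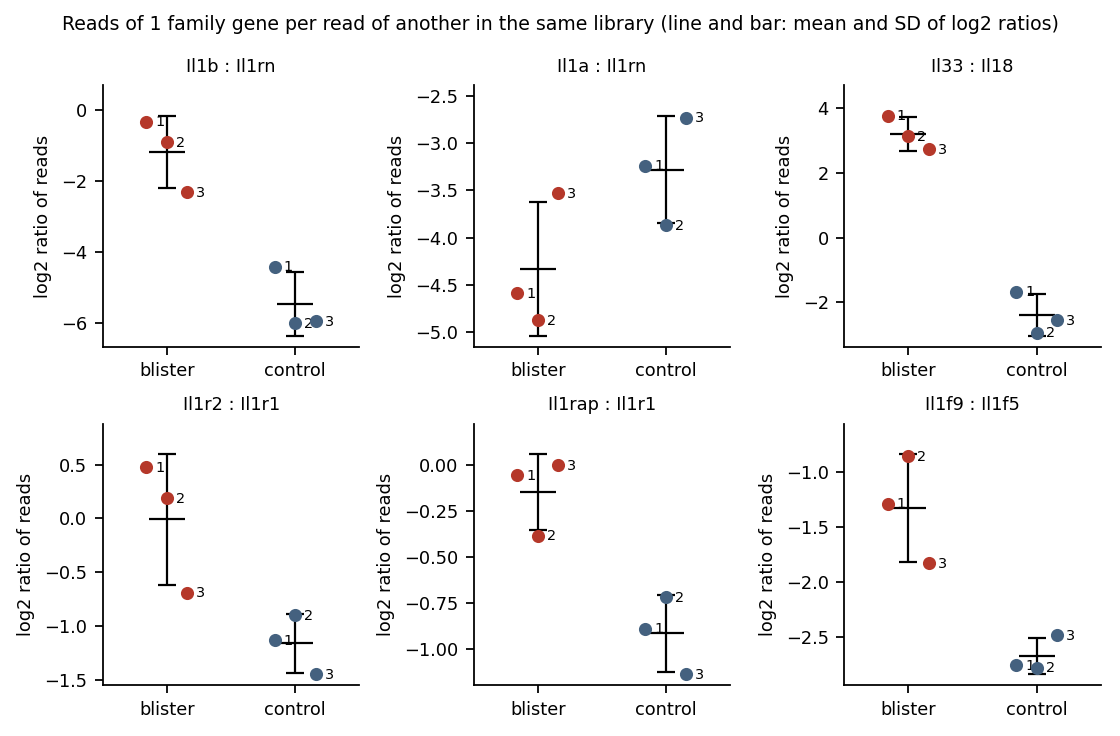
Reads of 1 family gene per read of another in the same library, on a log2 axis, for 3 blister and 3 control libraries with the mean and SD of the log2 ratios. All ratios shown except Il1a to Il1rn separate the groups, with every blister library above every control library.

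Values within the libraries high and low in Xist are given as a description, since each set has 1 library in one of its groups and the direction for genes whose groups do not overlap is fixed. Levels were put on a log2 scale after 0.1 CPM was added, and then averaged by group. Among libraries high in Xist (2 blister, 1 control) the difference of these log2 means was 4.84 for Il33, 4.77 for Il1b, 1.02 for Il1rn, 1.19 for Il1r2 and 0.39 for Il1rap. Among those low in Xist (1 blister, 2 control) it was 5.59, 4.47, 0.94, 0.40 and 0.84 for the same genes in the same order. Il1r2 had the larger difference among libraries high in Xist and Il1rap among those low in Xist. When the log2 level of Xist entered the fit, the edgeR adjusted p was 0.0582 for Il1r2 and 0.0514 for Il1rap, and Il33, Il1b and Il1rn stayed called.

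The genes whose profiles over the 6 libraries lay closest to each member were sought by Euclidean distance between log2 CPM values centred on each gene's mean. Nearest to Il33 were Krt6b (8826, 2605 and 3625 CPM in blister libraries, against 79.9, 79.7 and 75.5 CPM in control libraries) and Krt6a, both keratin genes of wounded epidermis, at distances of 1.14 and 1.15. Their sequences are near-identical, and reads may be split between them. Nearest to Il1b were Trem1, an activating receptor gene of neutrophils and monocytes, at 0.939, and Cd14, a coreceptor gene for lipopolysaccharide, at 1.098. Trem1 had 31.2, 19.8 and 8.15 CPM in blister 1, 2 and 3, the same order of libraries as Il1b, against 0.384, 0.350 and 0.114 CPM in control libraries. Il1r2 lay closest to Zfp36 (0.158), which encodes a protein that destabilises cytokine messenger RNAs, and to Npm3 (0.165). For Il1rn the nearest were Lrrc1 and Larp1b, for Il1rap Myo1e and Frrs1, for Il1r1 Cenpj and Cblb, for Il18 Slc39a11 and Slc45a4, and for Il1a Pcdhgb6 and Zfp72, all at distances of 0.077 to 0.233. With 6 libraries in 2 groups these likenesses are a description only.

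Among the remaining ligand genes of the family 1 was called. Il1f9, the older symbol for Il36g, an epidermal cytokine gene of psoriatic and wounded skin, had 95.3, 67.3 and 54.5 CPM in blister libraries, against 21.2, 30.6 and 22.8 CPM in control libraries. Its log2 fold change was 1.54 ± 0.24 (SE, edgeR adjusted p = 0.00869), and the call held without each library in turn. Il1f6 and Il1f8 (Il36a and Il36b) averaged 6.87 ± 2.37 and 8.80 ± 2.46 CPM in blister libraries, against 6.72 ± 0.836 and 8.26 ± 0.896 CPM in control libraries (SD, n = 3 each). Il1f5 (Il36rn), the antagonist of the interleukin 36 receptor, was abundant at 122 to 233 CPM in blister and 127 to 210 CPM in control libraries and was not called, nor was Il1f10. Thus 1 of 5 further ligand genes rose and 0 fell, beside 9.74% and 11.6% of all tested genes.

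Of 7 further receptor genes and regulators 5 were tested, 1 rose and 0 fell, beside 9.74% and 11.6% of all tested genes. Il18rap, the accessory chain of the interleukin 18 receptor, had 7.43, 10.7 and 5.18 CPM in blister libraries, against 2.30, 0.910 and 1.71 CPM in control libraries (log2 fold change 2.235 ± 0.42 (SE), edgeR adjusted p = 0.0143). Its partner Il18r1 stood at 1.19 to 2.75 CPM in blister and 0.280 to 0.997 CPM in control libraries and missed the threshold (edgeR adjusted p = 0.0925). Il1rl2, the interleukin 36 receptor gene, was at 33.7 to 62.3 CPM in blister and 35.0 to 44.4 CPM in control libraries. A pair of inhibitors, Sigirr and the interleukin 18 binding protein gene Il18bp, stood at 3.76 ± 0.166 and 2.98 ± 0.549 CPM in blister libraries and at 5.62 ± 1.02 and 4.55 ± 1.69 CPM in control libraries (SD, n = 3 each), and were not called. Il1rapl1 had 1 read in the 6 libraries and Il1rapl2 had 0.

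**Figure D4:**
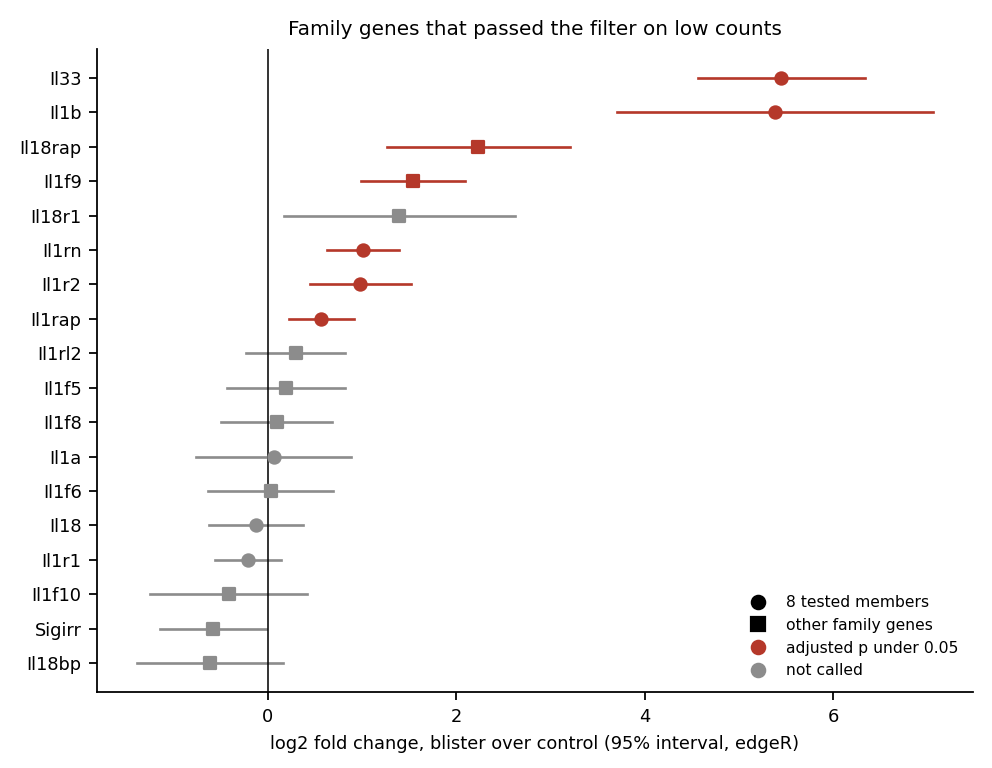
Log2 fold change, blister over control, with 95% interval for the 18 family genes that passed the filter on low counts, circles for the members and squares for other family genes. Il33 and Il1b stand at 5.45 and 5.38, and the remaining genes lie between -0.61 and 2.24.

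For genes that process and release these cytokines, of 13 tested genes (15 listed) 3 rose and 1 fell, with a median log2 fold change of 0.25. The shares over all tested genes were 9.74% and 11.6%. Nlrp3, an inflammasome sensor, had 16.9, 14.3 and 5.60 CPM in blister libraries, against 1.15, 0.350 and 0.796 CPM in control libraries (log2 fold change 3.99 ± 0.55 (SE), edgeR adjusted p = 0.00763). It reached the filter minimum in all 3 libraries of the blister group alone. Its blister libraries followed the order of Il1b. Pycard, the inflammasome adaptor, averaged 281 ± 68.4 CPM in blister libraries and 157 ± 38.8 CPM in control libraries (SD, n = 3 each), a call lost in 5 of the 6 fits without a single library (largest edgeR adjusted p 0.131, for blister 1). Casp1, the protease that cuts both precursors, was low at 3.03 to 3.65 CPM in blister and 3.98 to 5.67 CPM in control libraries and was not called (edgeR adjusted p = 0.125). Capn2, a calpain gene of the protease family that trims the interleukin 1 alpha precursor, rose to 244 ± 51.4 CPM in blister libraries, against 90.9 ± 20.2 CPM in control libraries (edgeR adjusted p = 0.00827). P2rx7, the receptor for extracellular ATP that can set off the inflammasome, fell to 5.37 ± 2.17 CPM in blister libraries, against 17.2 ± 2.48 CPM in control libraries (edgeR adjusted p = 0.0149, or 0.0507 without control 1).

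All 18 genes of the shared signalling chain were tested, 4 rose and 0 fell, with a median log2 fold change of 0.07. Over all tested genes 9.74% rose and 11.6% fell. The adaptor gene Myd88 averaged 79.7 ± 17.2 CPM in blister libraries and 46.2 ± 3.62 CPM in control libraries, and the receptor-associated kinase genes Irak2 and Irak4 averaged 21.0 ± 1.26 and 19.9 ± 3.71 CPM in blister libraries, against 11.8 ± 2.32 and 10.5 ± 1.66 CPM in control libraries (SD, n = 3 each). Their edgeR adjusted p values were 0.0214, 0.0228 and 0.0218, and each call was lost in 4 of the 6 fits without a single library (up to 0.0752 without control 1, 0.0838 without control 1 and 0.0718 without blister 1). Nfkb1 was called as well (log2 fold change 0.36, edgeR adjusted p = 0.0468) and lost in 5 of those 6 fits, up to 0.186 without control 1. Irak1, Traf6, Map3k7 and the Tab genes had log2 fold changes between -0.087 and 0.072 and were not called. Irak3, which restrains the receptor complex, averaged 19.0 CPM in both groups.

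Of 18 genes that interleukin 1 and other inflammatory signals can induce, 12 were tested. Of the 8 that reached the filter minimum in all libraries of both groups, 5 rose and 0 fell. Over all tested genes the shares were 9.74% and 11.6%. Another 3, Cxcl1, Cxcl2 and Lcn2, reached it in all 3 libraries of the blister group alone, so they were tested only because they were high there, and were called higher. Cxcl2, a neutrophil attractant gene, had 98.8, 166 and 30.2 CPM in blister libraries, against 1.38, 0.280 and 0.284 CPM in control libraries (log2 fold change 7.30 ± 0.85 (SE), edgeR adjusted p = 0.00641). Its blister mean was 64.5 CPM without blister 2, and its control mean 0.282 CPM without control 1. Ptgs2 and Ptges, which act in sequence to make prostaglandin E2, rose to 29.95 ± 12.9 and 156 ± 49.2 CPM in blister libraries, against 3.38 ± 1.74 and 42.7 ± 7.64 CPM in control libraries (SD, n = 3 each). Their edgeR adjusted p values were 0.00869 and 0.0074. Nfkbiz, a nuclear regulator of secondary targets, averaged 66.6 ± 13.6 CPM in blister libraries and 28.8 ± 2.29 CPM in control libraries (edgeR adjusted p = 0.0074). Lcn2, Bcl3, Cxcl1 and Zc3h12a were the other calls, Lcn2 with a blister mean of 23.3 CPM that was 13.9 CPM without blister 2, and the calls of Cxcl1 and Zc3h12a were lost in 4 of the 6 fits without a single library, with edgeR adjusted p up to 0.102 and 0.104 without control 1. Nfkbia and Tnfaip3, feedback inhibitors of NF-kappaB, were not called (edgeR adjusted p = 0.0636 and 0.124). Il6 had 2 reads over the blister and 1 read over the control libraries.

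**Figure D5:**
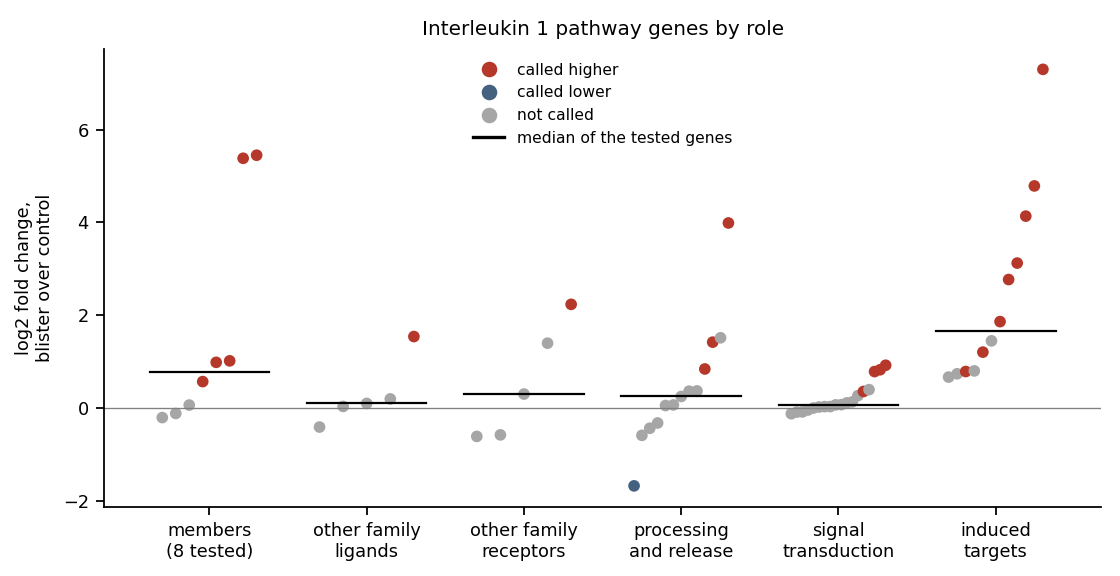
Log2 fold change, blister over control, of tested pathway genes grouped by role, with the median of each group as a line. The medians are 0.78 for the members, 0.10 and 0.30 for further ligand and receptor genes, 0.25 for processing and release, 0.07 for signal transduction and 1.66 for induced targets, the last including 3 genes that passed the filter through the blister group alone.

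Cytokines that interleukin 33 and interleukin 18 elicit from lymphocytes were barely detected. Il13 had 5 reads over the blister and 5 over the control libraries, Il5 had 1 in blister and 1 in control, Il4 had 1 in blister and 3 in control, Ifng had 2 in each group, and Il9 had 3 in blister and 0 in control libraries. These counts could not show a difference at this depth. Areg, an EGF receptor ligand gene that lymphoid cells and keratinocytes both make, was the 1 tested gene of this list and stood at 29.8, 33.0 and 10.2 CPM in blister libraries, against 9.82, 5.67 and 6.997 CPM in control libraries (edgeR adjusted p = 0.034, and up to 0.104 without blister 1, the call being lost in 5 of the 6 fits without a single library).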

How the data were processed

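RNA-seq of 6 libraries of mouse dorsal epidermis was analysed, 3 blister and 3 control. The deposited files hold raw read counts per gene symbol. The submitters' processing notes name HISAT2 2.0.0, featureCounts and the builds NCBIM37 and mm9. The strand setting and the rule for reads matching several genes are not stated in the labels. Such settings can shift reads between overlapping or similar genes.

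The counts were tested with edgeR 4.0.16 in R 4.3.3, using quasi-likelihood F-tests, TMM scaling and a design with group only. filterByExpr (minimum count 10, minimum total 15) kept 14028 genes. All 8 tested members reached its minimum of 0.789 CPM in every library. P-values are two-sided, adjusted by Benjamini-Hochberg over all tested genes. CPM used the TMM-scaled library size, and errors beside means are SDs of 3 libraries. Intervals of fold changes are 95% intervals from the fit, and counting limits cover counting error only. The test was run on simulated counts first. No 2 libraries were copies of each other.

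The members and gene lists were chosen with earlier results of these data known. Named genes are the 9 members, all further family genes, the 3 smallest p-values of each other pathway list, the 2 nearest profiles of each member (prior count 2) and the most abundant tested marker of each cell type, and others were chosen after their values were seen. Same-numbered libraries did not deviate together (correlations of 0.212, -0.259 and 0.011 for numbers 1, 2 and 3), so libraries were not paired. Older symbols were used where the files have them, and Trdc was not analysed here. Promoters are from RefSeq for GRCm38.p6, with all 9 members matched by symbol. DESeq2 1.42.0 and limma 3.58.1 served as alternatives, and plots were drawn with matplotlib 3.10.9.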

Additional observations from a re-analysis of the deposited data

How the results depend on the processing

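Il33, Il1b and Il1rn kept their direction and their call in all 15 alternatives run for each, with log2 fold changes of 5.15 to 5.87, 4.74 to 6.12 and 0.76 to 1.14. Il1r2 lost its call in 6 of them and Il1rap in 9, always upward, with edgeR adjusted p of up to 0.0829 and 0.209. Leaving out 1 library gave 3 to 5 members called, 10 to 24 pathway genes called and 785 to 4061 genes called in all, fewest without control 1. With Xist as a covariate 3 members and 1696 genes were called. The cause was not tested. Il1a, never called, turned downward with library total alone (-0.19), without blister 3 and control 3 (-0.22) and with the replicate number as a block (-0.012), and ranged from -0.35 to 0.33 when 1 library was left out. Il18, also never called, ranged from -0.27 to 0.046 when 1 library was left out, and was lowest, at -0.405, without blister 3 and control 3. The replicate block gave 2876 genes, 15 pathway genes and 4 members called, Il1rap being lost (edgeR adjusted p = 0.0551), and the numbers did not pair the libraries. DESeq2 called 3978 genes and limma-voom 2917, and both called 5 members. The stricter filter (at least 5 CPM in 3 libraries) called 2497 genes and 5 members. Depth limits Il1rl1 and the lymphocyte cytokine genes, where 3 counts correspond to 0.171 to 0.413 CPM.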
